A study of Mus musculus with 52 samples.

Results

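The interleukin-6 (IL-6) family of cytokines and receptors was described in mouse pancreatic tumors. Its members here were 10 genes chosen by name, of 27525 genes in the deposited table of normalized counts: the cytokines Il6, Il11, Lif, Osm and Clcf1, and the receptor chains Il6ra, Il11ra1, Lifr, Osmr and Il6st. Each of these cytokines binds a receptor complex that contains gp130, the shared signaling chain encoded by Il6st. JAK kinases bound to that complex then phosphorylate STAT proteins, STAT3 above all, and STAT3 switches on its own inhibitor SOCS3. In pancreatic cancer the family is best known from IL-6 and LIF, which stromal fibroblasts, myeloid cells and tumor cells secrete, and from the growth and inflammation that STAT3 drives in the tumor.

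The tumors grew under the skin of male C57BL/6NHsd mice aged 8 to 10 weeks. They arose from injected KxPxCx cells, a cell line from a KPC mouse in which Cre driven by the Pdx1 promoter recombines the mutant alleles that drive the tumors, so that all tumors share these alleles and descend from a single line. Treatment began at a tumor volume of about 100 mm3. The 4 groups held 8 individual tumors each: untreated tumors, labelled Control; tumors given 2 µg of ADU-S100, a cGAMP analog that activates STING, once into the tumor; tumors of mice given 100 µg of the agonistic anti-LTβR antibody 4H8 into the peritoneum 4 times, the last on day 10; and tumors given both agents (combination). All were collected on day 14 and sequenced as bulk poly(A) RNA, so that fewer cells of a type and less RNA per cell cannot be told apart. The comparisons asked how each agent alone and both together changed the tumor transcriptome.

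Whole reads recovered per library ranged from 12762453 to 15591986. A value below is a normalized count, meaning reads assigned to a gene divided by a size factor of its library. Log2 fold changes are differences of mean log2(normalized count + 1), a scale that understates the change of low genes. A gene passed a comparison at a Benjamini-Hochberg adjusted p under 0.05 over all genes tested by limma. Keratins of pancreatic ductal tumors were present in every tumor, and Krt8 averaged 9519.7 ± 2014 (SD, n = 8) in untreated tumors. Markers of other tissues varied widely among tumors: the sum of 5 skeletal muscle markers ranged from 5104 to 110869.9 normalized counts over untreated tumors and from 6121 to 324487 over combination tumors, and the sum of 4 keratinocyte markers from 2287 to 35309 and 1327 to 53108. No member of these 2 lists passed any of the 6 pairwise comparisons, and 1 keratinocyte marker, Krt14, passed the interaction defined below (median of the 4 markers 2.23 on the log2 scale).

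Promoter windows of RefSeq genes (GRCm38.p6), 250 bases before to 50 after each start, were found for 8 of the 10 members, in 11 windows, and Osm and Clcf1 were not matched. The windows of Il6 and Lif are shown because both genes were highest in the same untreated tumor, and those of Il11ra1 and Lifr because these receptors rose with the combination. Capitals mark matches to any of 4 motifs read on both strands, namely the STAT element TTCNNNGAA, the AP-1 site TGANTCA, the NF-κB consensus and the interferon-stimulated response element. No match overlapped another.
Il6, chr5:30012864-30013163, plus strand: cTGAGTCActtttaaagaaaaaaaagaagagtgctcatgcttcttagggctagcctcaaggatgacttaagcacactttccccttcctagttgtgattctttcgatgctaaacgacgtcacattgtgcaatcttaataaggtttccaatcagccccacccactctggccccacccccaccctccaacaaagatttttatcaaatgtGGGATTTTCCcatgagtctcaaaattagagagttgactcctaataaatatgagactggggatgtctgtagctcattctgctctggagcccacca
Lif, chr11:4257318-4257617, plus strand: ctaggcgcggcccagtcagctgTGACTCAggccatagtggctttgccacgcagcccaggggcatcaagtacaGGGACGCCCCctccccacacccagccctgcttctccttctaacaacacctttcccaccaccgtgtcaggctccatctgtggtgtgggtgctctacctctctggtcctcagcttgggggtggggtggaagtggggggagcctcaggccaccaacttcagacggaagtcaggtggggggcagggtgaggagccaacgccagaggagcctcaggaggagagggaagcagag
Il11ra1, chr4:41760193-41760492, plus strand: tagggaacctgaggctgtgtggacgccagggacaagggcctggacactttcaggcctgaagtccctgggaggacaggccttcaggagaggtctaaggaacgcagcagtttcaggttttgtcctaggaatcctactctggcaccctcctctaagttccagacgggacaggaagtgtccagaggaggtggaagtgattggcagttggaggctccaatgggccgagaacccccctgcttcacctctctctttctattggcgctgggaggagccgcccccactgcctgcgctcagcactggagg
Lifr, chr15:7129322-7129621, plus strand: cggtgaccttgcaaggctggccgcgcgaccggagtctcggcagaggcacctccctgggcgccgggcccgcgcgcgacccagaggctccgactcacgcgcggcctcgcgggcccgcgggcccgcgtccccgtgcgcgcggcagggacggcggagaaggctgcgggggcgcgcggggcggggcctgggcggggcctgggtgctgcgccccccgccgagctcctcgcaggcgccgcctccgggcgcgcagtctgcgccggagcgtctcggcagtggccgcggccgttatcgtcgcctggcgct
The Il6 and Lif windows each held 1 AP-1 match and 1 NF-κB match. An AP-1 match was also in a window of Il11 and in that of Osmr, neither of them shown. No motif matched in either window of Il11ra1 or of Lifr. The STAT element was in 0 of the 11 member windows and in 8.3% of all 32851 windows of this length. AP-1 was in 7.81% of all windows, the NF-κB consensus in 8.46% and the interferon element in 3.44%. A match describes these letters only.

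In GRCm38 (GENCODE M21) the members on the plus strand are Il6 at chr5:30013114-30019981, Lif at chr11:4257557-4272514, Osm at chr11:4236420-4241026, Il6st at chr13:112464070-112510086, Lifr at chr15:7090614-7197489, Il11ra1 at chr4:41699989-41769474 and Clcf1 at chr19:4214238-4223490. Those on the minus strand are Il11 at chr7:4772373-4782859, Il6ra at chr3:89864059-89913196 and Osmr at chr15:6813577-6874969. Most lie apart from each other, and Lif and Osm on chromosome 11 and Osmr and Lifr on chromosome 15 are neighbors. The RefSeq starts of the Il11ra1 and Lifr windows shown lie inside these longer spans.

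Levels between genes can be compared per length, here per kb of the union of a gene's exons in GENCODE M21. In untreated tumors the cytokine Clcf1 stood highest, at 886 ± 166 normalized counts per kb (SD, n = 8). The shared chain Il6st followed at 350.5 ± 53.3 and Il11ra1 at 118 ± 20.8. No untreated tumor's value of Clcf1 overlapped with those of Il6st, nor those of Il6st with those of Il11ra1. From Il11ra1 downward each gene overlapped with the next: Lif at 70.9 ± 19.0, Il6ra at 68.9 ± 7.33, Osmr at 65.1 ± 13.4, Il6 at 61.7 ± 74.9, Il11 at 55.0 ± 15.3, Osm at 30.5 ± 8.58 and Lifr at 29.9 ± 4.96 normalized counts per kb. Over all 32 tumors Il6st varied least, with a coefficient of variation of 9.25%, and Il6 most, at 89.4%. Untreated tumor 7, high for Il6 and Lif, set their places. Without it the untreated means were 36.3 ± 22.8 per kb (n = 7) for Il6, below Il11 at 54.3, and 64.6 ± 6.64 for Lif, below Il6ra at 69.0. The highest other untreated tumor then stood at 71.7 for Lif and 77.9 for Il6ra, below the lowest Il11ra1 value of 80.5. Over the other 31 tumors the coefficient of variation was 42.2% for Il6 and highest for Il11ra1, at 58.7%.

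**Figure D1:**
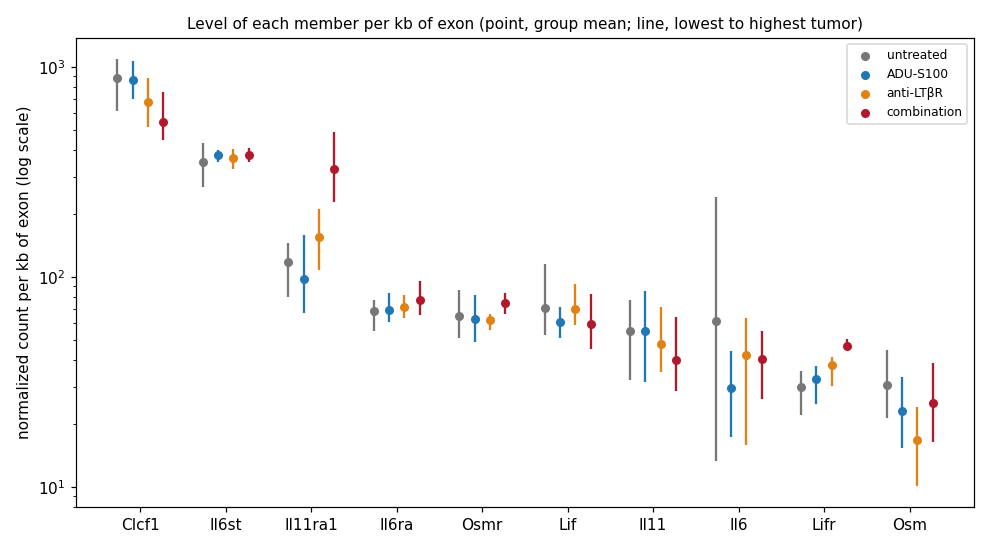
Level of the 10 members in normalized counts per kb of exon on a log axis, ordered by the mean over 32 tumors. Points are group means of 8 tumors and lines run from the lowest to the highest tumor. The means of Clcf1 and Il6st are the highest in all groups, and the combination mean of Il11ra1 reached 324 per kb against 118 in untreated tumors. In combination tumors the values of Il11ra1 overlap with those of both.

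With the combination, the receptor genes Il11ra1 and Lifr rose and the cytokine gene Clcf1 fell, while Il6, Lif, Osm, Il11, Il6ra, Il6st and Osmr did not pass. All 10 members passed the filter on low values in every comparison. In combination against untreated tumors 3 of 10 members passed, 2 higher and 1 lower, where 43.2% of 16909 genes did. The median log2 fold change was 0.05 over the members and -0.02 over all genes tested. Il11ra1 alone also changed at least 2-fold, which 6.12% of the genes tested did while passing.

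**Figure D2:**
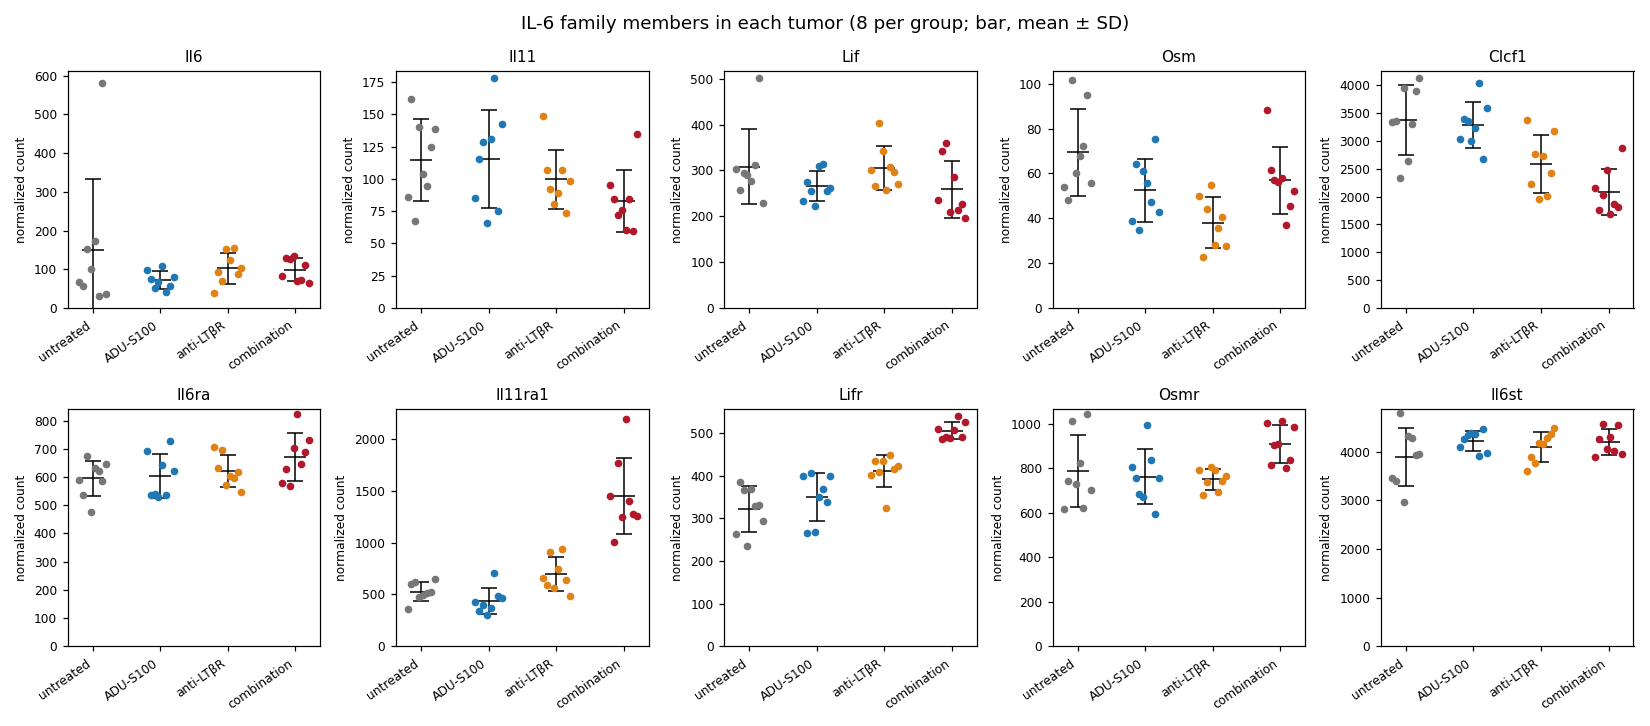
Normalized count of each member in each tumor, by group (8 tumors each; the bar is the mean ± SD, and for Il6 in untreated tumors it extends below the axis). The 8 combination tumors lie above all others for Il11ra1 and Lifr, and untreated tumor 7 stands alone for Il6 at 582 and for Lif at 502.

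Il11ra1 encodes the chain that captures IL-11 before gp130 is engaged. Its lowest, median and highest values were 359.8, 514 and 649 in untreated tumors and 302, 410.4 and 706 in ADU-S100 tumors. They were 484, 645 and 941 in anti-LTβR tumors and 1009, 1335 and 2193 in combination tumors. Every combination tumor was thus above every tumor of the other 3 groups, while those groups overlapped with each other. The mean rose from 528 ± 93.0 (SD, n = 8) to 1449.8 ± 369.9, a ratio of means of 2.75, with a log2 fold change of 1.44 ± 0.14 (SE, 95% interval 1.14 to 1.74, adjusted p = 6.88e-06). Such a complete separation with the combination higher was shown by 4.64% of genes against untreated tumors, by 1.45% against anti-LTβR tumors and by 5% against ADU-S100 tumors, and by 2 of the 10 members in each case.

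Against each agent alone, Il11ra1 was higher in combination tumors by 1.06 ± 0.16 (SE, 95% interval 0.73 to 1.39, adjusted p = 7.32e-04) on the log2 scale over anti-LTβR and by 1.74 ± 0.17 (SE, 95% interval 1.39 to 2.09, adjusted p = 5.29e-06) over ADU-S100. Against untreated tumors neither agent alone passed by limma over all tumors: the values were 0.38 ± 0.14 (SE, 95% interval 0.08 to 0.67, adjusted p = 0.0748) for anti-LTβR and -0.30 ± 0.15 (SE, 95% interval -0.62 to 0.02, adjusted p = 0.356) for ADU-S100. The anti-LTβR difference passed without anti-LTβR tumor 8 (0.45, adjusted p = 0.0381), with DESeq2 (0.0381) and with only tumors under 100000 summed skeletal muscle marker counts (0.0495). The single agents differed from each other by 0.68 ± 0.16 (SE, adjusted p = 0.025), a call that was lost without ADU-S100 tumor 2 (adjusted p = 0.0568), ADU-S100 tumor 4 (0.0509) or anti-LTβR tumor 6 (0.0536). Il11ra1 also changed more with both agents than the sum of the single changes, with an interaction of 1.36 ± 0.23 (SE, 95% interval 0.90 to 1.82, adjusted p = 3.61e-04). The interaction is the step from ADU-S100 to the combination minus the step from untreated to anti-LTβR.

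Markers of stromal cells moved with Il11ra1. All 7 fibroblast markers (such as Col1a1 and Pdgfra) rose in combination against untreated tumors, and their sum ran from 91679 to 143722 normalized counts in untreated tumors, 67264 to 182566 after ADU-S100, 75758 to 165966 after anti-LTβR and 161323 to 590991 after both agents. No fibroblast marker passed with either agent alone, and all 7 passed the interaction. All 6 endothelial markers rose as well, with sums of 1214 to 1824, 976 to 1658, 1406 to 1974 and 2208 to 3177 in the same order, and Cdh5 and Tie1 also rose with anti-LTβR alone. No marker of either list was at 0 in any tumor, and their part in the results for Il11ra1 and Lifr was not tested. Within groups, over 32 tumors of which each pair of values shares a library, the genes that varied most like Il11ra1 were Cd248 (Pearson's r = 0.85) and Rcn3 (r = 0.85).

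**Figure D3:**
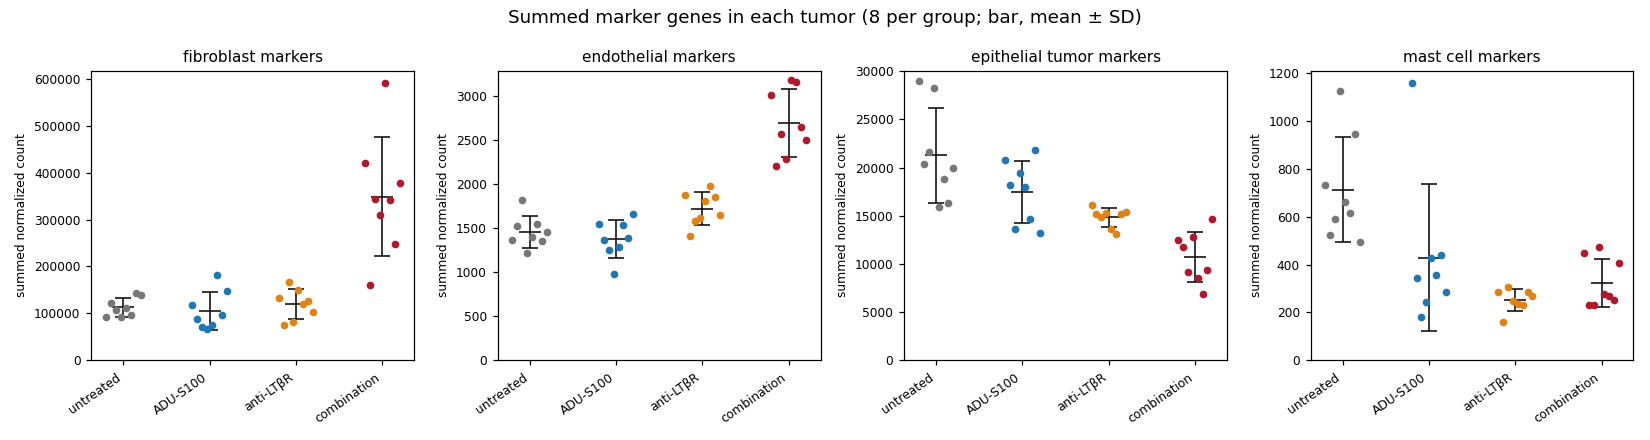
Summed normalized counts of 4 marker lists in each tumor, by group (8 tumors each; the bar is the mean ± SD). Fibroblast sums of combination tumors start at 161323 and overlap with other groups only at their low end, endothelial sums of combination tumors lie above all others, and epithelial and mast cell sums are lower in combination than in untreated tumors.

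The annotated span of Il11ra1 holds or touches several other genes. Galt, on the same strand, shares no exon base with it and averaged 134 ± 13.5 (SD, n = 8) in untreated and 217 ± 39.0 in combination tumors. Dctn3, on the other strand, fell by 0.31 on the log2 scale in the same comparison (adjusted p = 0.00438). The near-identical copies Il11ra2 and Gm13305 averaged 1.54 and 6.28 in combination tumors. In single tumors their values fell to small fractions of 1 read, as estimated counts can, so reads that match several copies may have been divided among them and the level of Il11ra1 carries that uncertainty.

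Lifr encodes the LIF receptor chain, which pairs with gp130 and also serves cytokines such as OSM and CLCF1. Its lowest, median and highest values were 236, 331 and 385 in untreated tumors and 267, 359 and 406 in ADU-S100 tumors. They were 324, 419.6 and 449 after anti-LTβR and 486, 499 and 542 after both agents. The combination tumors lay close together and above all others, with a coefficient of variation of 3.94% against 16.6% in untreated tumors. The mean of Lifr was 1.57 times the untreated mean, and its log2 fold change was 0.67 ± 0.09 (SE, 95% interval 0.48 to 0.85, adjusted p = 4.28e-05). Lifr was also higher by 0.30 ± 0.06 (SE, adjusted p = 0.00178) over anti-LTβR and by 0.55 ± 0.09 (SE, adjusted p = 1.13e-04) over ADU-S100.

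Anti-LTβR alone also raised Lifr, by 0.37 ± 0.10 (SE, 95% interval 0.16 to 0.57, adjusted p = 0.0224) against untreated tumors, and 7 of 8 anti-LTβR tumors were above every untreated tumor. That call did not hold with only tumors under 100000 summed skeletal muscle marker counts, at 0.37 (adjusted p = 0.0936). ADU-S100 alone gave 0.12 ± 0.12 (SE, 95% interval -0.13 to 0.37, adjusted p = 0.619). The interaction of Lifr was 0.18 ± 0.13 (SE, 95% interval -0.09 to 0.45, adjusted p = 0.36) and did not pass. The genes that varied most like Lifr within groups were Rora (Pearson's r = 0.71) and Fam214a (r = 0.68).

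The other 3 receptor chains did not pass against untreated tumors. Osmr encodes the OSM receptor chain and lies next to Lifr on chromosome 15, with 215644 bases and no protein-coding gene between them. Its lowest, median and highest values were 619.8, 738 and 1045 in untreated tumors and 593, 756 and 996 in ADU-S100 tumors. They were 679, 755 and 807 after anti-LTβR and 803, 909 and 1013 after both agents. Of the combination tumors 7 of 8 were above every anti-LTβR tumor, and all lay within the untreated range. Osmr was higher in combination tumors than in anti-LTβR tumors by 0.27 ± 0.06 (SE, 95% interval 0.15 to 0.39, adjusted p = 0.00316) and than in ADU-S100 tumors by 0.27 ± 0.09 (SE, 95% interval 0.08 to 0.45, adjusted p = 0.0212). Against untreated tumors the difference was 0.23 ± 0.11 (SE, 95% interval 0.00 to 0.45, adjusted p = 0.0909) and did not pass, although it did without untreated tumor 3 (adjusted p = 0.0302) or untreated tumor 7 (0.0226).

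Il6ra encodes the IL-6-binding chain. It averaged 595 ± 63.4 (SD, n = 8) in untreated tumors, 602 ± 78.5 after ADU-S100, 621 ± 55.4 after anti-LTβR and 671 ± 84.5 after both agents. All 4 groups overlapped, with 477 to 673 in untreated and 567 to 824 in combination tumors, which differed by 0.17 ± 0.08 (SE, 95% interval 0.00 to 0.34, adjusted p = 0.105). Il6ra shares 242 exon bases with Gm42809 on the other strand, which averaged 2.06 in untreated and 1.33 in combination tumors. Il6st averaged 3889.8 ± 592, 4232 ± 205, 4095 ± 309 and 4200.1 ± 263 in the same order. The groups again overlapped, and combination tumors, at 3899 to 4571, and untreated tumors, at 2972 to 4790.1, differed by 0.12 ± 0.08 (SE, 95% interval -0.05 to 0.30, adjusted p = 0.237). The genes that varied most like Il6ra were Tlr5 (Pearson's r = 0.79) and Kcnk6 (r = 0.72), those most like Il6st Zbtb20 (Pearson's r = 0.82) and Extl3 (r = 0.82) and those most like Osmr Slc39a14 (Pearson's r = 0.69) and Gnpda1 (r = 0.68).

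Among the cytokines, Clcf1 fell. It encodes cardiotrophin-like cytokine factor, which acts through the CNTF receptor complex. Its lowest, median and highest values were 2329.6, 3355 and 4136 in untreated tumors and 2675, 3298 and 4032 in ADU-S100 tumors. They were 1956, 2581 and 3379.7 after anti-LTβR and 1695, 1944 and 2874 after both agents. Untreated and ADU-S100 tumors were alike in range, anti-LTβR tumors lay lower, and every untreated tumor exceeded 6 of the 8 combination tumors. The combination mean was 0.617 of the untreated mean, a log2 fold change of -0.69 ± 0.13 (SE, 95% interval -0.97 to -0.42, adjusted p = 5.05e-04), and against ADU-S100 tumors the change was -0.67 ± 0.11 (SE, 95% interval -0.90 to -0.45, adjusted p = 1.11e-04).

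Anti-LTβR alone gave -0.38 ± 0.13 (SE, 95% interval -0.67 to -0.10, adjusted p = 0.0595) for Clcf1 against untreated tumors, which did not pass, and ADU-S100 alone gave -0.02 ± 0.11 (SE, 95% interval -0.26 to 0.21, adjusted p = 0.939). Leaving out untreated tumor 3, untreated tumor 5, anti-LTβR tumor 1 or anti-LTβR tumor 8 brought the anti-LTβR difference past the threshold, with adjusted p from 0.022 to 0.0446. Of the 5 epithelial tumor markers, Krt8, Krt18 and Krt19 fell in combination against untreated tumors, and Epcam and Cdh1 did not pass. Anti-LTβR alone lowered Krt8, Krt18 and Cdh1. The summed markers ran from 15947 to 28939 in untreated tumors, 13223 to 21772 after ADU-S100, 13111 to 16159.7 after anti-LTβR and 6829 to 14654 after both agents, none was at 0 in any tumor, and their part in the fall of Clcf1 was not tested. Clcf1 shares 311 exon bases with AC109138.7 on the same strand, which averaged 122 in untreated and 67.3 in combination tumors. The genes that varied most like Clcf1 within groups were Lratd1 (Pearson's r = 0.85) and Fam110c (r = 0.83).

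Osm encodes oncostatin M, made mainly by myeloid and T cells. Its lowest, median and highest values were 48.3, 64.1 and 102 in untreated tumors and 34.95, 51.4 and 75.3 in ADU-S100 tumors. They were 22.9, 38.1 and 54.6 after anti-LTβR and 37.0, 56.7 and 88.5 after both agents. The anti-LTβR tumors were lowest as a group, and 6 of 8 lay below every untreated tumor. Anti-LTβR alone lowered Osm, with a log2 fold change of -0.86 ± 0.20 (SE, 95% interval -1.28 to -0.44, adjusted p = 0.0109) against untreated tumors. In that comparison 2 of 10 members passed, Osm lower and Lifr higher, where 15.3% of 16691 genes did.

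With ADU-S100 added to the antibody, Osm stood higher. Combination tumors were above anti-LTβR tumors by 0.59 ± 0.19 (SE, 95% interval 0.18 to 0.99, adjusted p = 0.034), and differed from untreated tumors by -0.27 ± 0.18 (SE, 95% interval -0.66 to 0.11, adjusted p = 0.231) and from ADU-S100 tumors by 0.12 ± 0.18 (SE, 95% interval -0.26 to 0.50, adjusted p = 0.617), neither of which passed. The excess over anti-LTβR is close to the threshold: leaving out any of anti-LTβR tumors 2, 5, 6 and 8 or combination tumors 1, 3 and 5 gave adjusted p from 0.0511 to 0.0687. It was also lost with no filter on low values (0.0516), with only tumors under 100000 summed skeletal muscle marker counts (0.0527) and with only libraries above 14000000 recovered reads (0.127). The interaction of Osm was 0.98 ± 0.27 (SE, 95% interval 0.43 to 1.53, adjusted p = 0.0117), and with those deeper libraries it was 0.85 (adjusted p = 0.084). With those libraries the anti-LTβR difference was -0.72 (adjusted p = 0.0577).

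Markers of cells that can make oncostatin M were read beside these values. The sum of 6 macrophage markers ran from 13481 to 24701 in untreated tumors, 13636 to 18172 after ADU-S100, 17663 to 21616 after anti-LTβR and 18160.3 to 27871 after both agents, and that of 6 neutrophil markers from 1948 to 7024, 2724 to 7247, 2186 to 7571 and 3399 to 19790.5. The sum of 5 T cell markers ran from 332 to 859.9, 428 to 585, 567 to 836 and 662 to 1128. Of 5 mast cell markers, Cpa3, Mcpt4 and Tpsb2 were lower in anti-LTβR and in combination than in untreated tumors. Kit was higher in combination tumors, and Ms4a2 was too low to test in those pairs. The sum of these 5 ran from 494 to 1126 in untreated tumors, 183 to 1158 after ADU-S100, 161 to 306 after anti-LTβR and 231 to 472 after both agents, none was at 0, and its part in the result for Osm was not tested. The genes that varied most like Osm within groups were Ccl2 (Pearson's r = 0.71) and Furin (r = 0.68).

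Il6 and Lif, the cytokines best known in pancreatic cancer, did not pass any comparison. The lowest, median and highest values of Il6 were 32.2, 84.3 and 582 in untreated tumors and 41.7, 71.1 and 107 in ADU-S100 tumors. They were 38.4, 97.5 and 155 after anti-LTβR and 63.5, 96.0 and 134 after both agents. A single tumor, untreated 7, stood far above all others. The untreated mean was 149.9 ± 182 (SD, n = 8) with that tumor and 88.2 ± 55.4 (n = 7) without it, and combination differed from untreated by -0.02 ± 0.46 (SE, 95% interval -1.001 to 0.96, adjusted p = 0.976) with it and by 0.35 without it. On recovered reads, edgeR gave -0.59 (adjusted p = 0.353) for the same comparison. The interval spans about 2-fold in either direction, so a smaller change was not detectable with this spread.

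Lif encodes leukemia inhibitory factor. Untreated tumor 7 was also the highest for Lif, at 502, where the next untreated tumor stood at 312. Lif averaged 309 ± 82.7 (SD, n = 8) in untreated tumors, 266 ± 32.7 after ADU-S100, 306 ± 48.0 after anti-LTβR and 259 ± 63.0 after both agents. The combination tumors, at 196 to 361, overlapped with the untreated tumors, at 229 to 502, and differed from them by -0.25 ± 0.16 (SE, 95% interval -0.58 to 0.08, adjusted p = 0.203). Lif lies 16530 bases from Osm on chromosome 11 with no protein-coding gene between. Within groups, the genes that varied most like Il6 were Bcl3 (Pearson's r = 0.78) and Il13ra1 (r = 0.72), and those most like Lif were Nos2 (Pearson's r = 0.66) and Malt1 (r = 0.65).

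Il11 encodes IL-11, the ligand of Il11ra1. It averaged 115 ± 31.8 (SD, n = 8) in untreated tumors, 115 ± 37.9 after ADU-S100, 99.5 ± 23.0 after anti-LTβR and 83.2 ± 24.02 after both agents. The lowest group was thus the combination, in which the receptor was highest, but the ranges of 59.7 to 135 and, in untreated tumors, 67.2 to 162 overlapped and Il11 did not pass against untreated tumors, at -0.45 ± 0.19 (SE, 95% interval -0.85 to -0.05, adjusted p = 0.0651). It did so without untreated tumor 3 (adjusted p = 0.0195) or combination tumor 8 (0.0185), the combination tumor highest for both Il11 and Clcf1. Over the 32 tumors, within groups, Il11 and Clcf1 had a Pearson's r of 0.67, the highest of the 45 pairs of members, and Il11 and Il6st one of -0.58, the lowest. The genes that varied most like Il11 were Btc (Pearson's r = 0.82) and Trib1 (r = 0.81).

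Counts of members that passed can be set side by side for the remaining comparisons. ADU-S100 alone moved no member past the threshold by limma, where 0% of 16613 genes passed. At an unadjusted p under 0.05 limma listed 1 member, Osm at -0.39, and 2408 genes, while edgeR passed 1 gene and DESeq2 39 at an adjusted p under 0.05, no member among them (DESeq2 gave no adjusted p for 6 members). Combination against anti-LTβR passed 4 of 10 members (Osm, Osmr, Lifr and Il11ra1, all higher) where 26.6% of genes passed, and combination against ADU-S100 also 4 (Osmr, Lifr and Il11ra1 higher, Clcf1 lower) where 46.2% did. Anti-LTβR against ADU-S100 passed 1 of 10, Il11ra1, where 6.42% of genes passed. The interaction passed 2 of 10, Osm and Il11ra1, where 18.4% of genes passed. These comparisons share tumors.

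**Figure D4:**
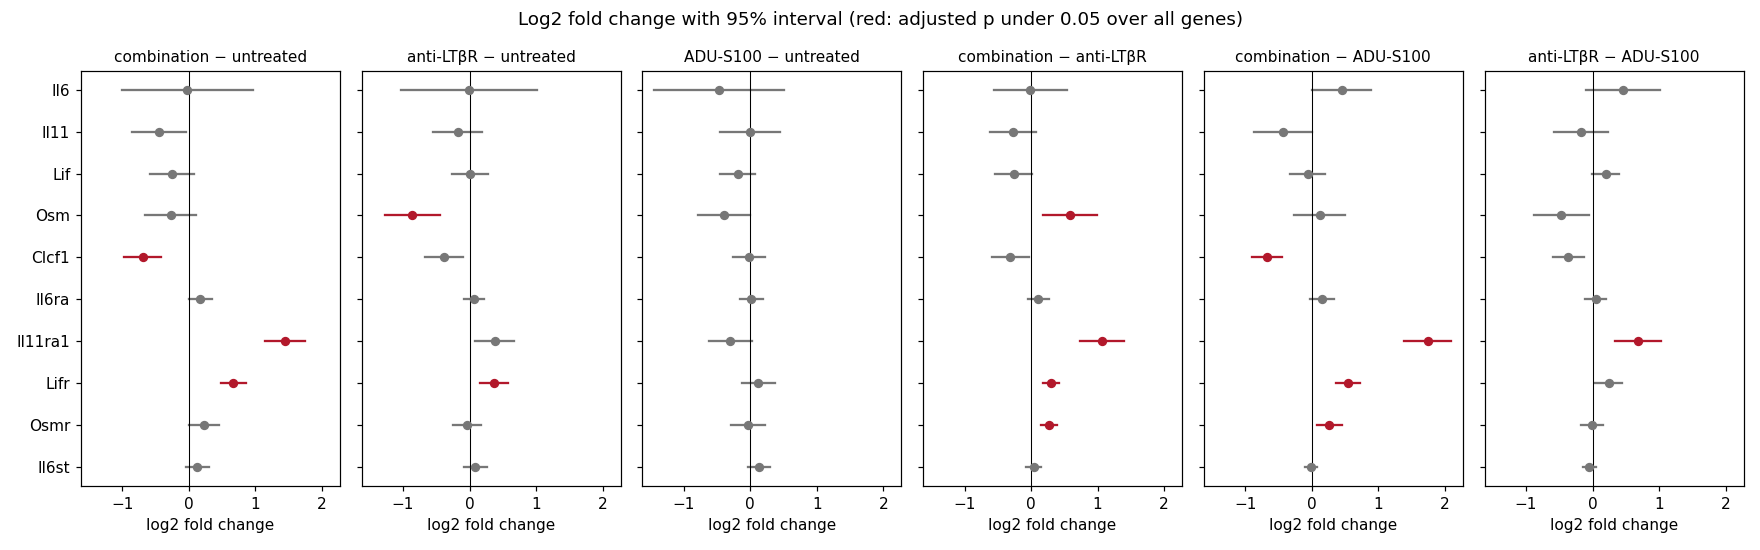
Log2 fold change of each member in the 6 pairwise comparisons, with its 95% interval from limma. Red marks an adjusted p under 0.05 over all genes. Il11ra1 and Lifr lie right of 0 in all 3 comparisons of the combination, and the widest intervals belong to Il6 against untreated tumors.

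The wider family was read from a list of 11 other ligands, receptors and binding partners, of which 7 were tested. In combination against untreated tumors 4 of the 7 rose and none fell, 57.1% of those tested beside 43.2% of all genes, with a median log2 fold change of 0.66 where the median of all genes was -0.02. Cntfr, the binding chain of the CNTF receptor through which CLCF1 acts, rose from 33.6 ± 22.5 (SD, n = 8) to 66.5 ± 18.9, by 1.14 ± 0.30 (SE, adjusted p = 0.00595). Il27ra, a receptor that pairs with gp130, rose by 0.97 ± 0.18 (SE, adjusted p = 5.21e-04), and the genes of both IL-27 subunits rose too, Ebi3 by 0.66 (adjusted p = 6.96e-04) and Il27 by 0.73 (adjusted p = 0.0365). Anti-LTβR alone raised 1 of the 7, 14.3% beside 15.3% of all genes. Il11ra2, Ctf2 and Il31ra were too low to test and Il31 has no row in the table.

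Among 12 JAK-STAT signal transducers, 5 rose and 1 fell in combination against untreated tumors, 50.0% of the list beside 43.2% of all genes, with a median of 0.10. Stat5a changed by 0.23 (adjusted p = 0.00437), the adaptor gene Gab1 by 0.25 (adjusted p = 0.0247) and the adaptor gene Shc1 by -0.16 (adjusted p = 0.00628). Stat3, the main STAT of the family, averaged 4504 ± 314 in untreated and 4742 ± 246 in combination tumors, a change of 0.08 ± 0.05 (SE, adjusted p = 0.218) that did not pass. These are transcript levels, and phosphorylation was not measured.

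Of 12 negative regulators, 4 rose and 1 fell, 41.7% of the list and so near the share of 43.2% among all genes, with a median of 0.08. Socs1, an inhibitor of JAK kinases, rose from 266 ± 47.6 (SD, n = 8) to 435 ± 99.9, by 0.69 ± 0.15 (SE, adjusted p = 0.00144), and with anti-LTβR alone by 0.46 (adjusted p = 0.0136). The phosphatase genes Ptpn6 and Ptpn1 rose by 0.44 (adjusted p = 9.69e-04) and 0.14 (adjusted p = 0.0302). The gene that fell, Arid5a, was listed with the regulators of mRNA turnover and encodes a protein that stabilizes Il6 mRNA. Its log2 fold change was -0.45 ± 0.07 (SE, adjusted p = 1.46e-04). Socs3, the feedback inhibitor of gp130 signaling, averaged 1951 ± 294 in untreated and 1841 ± 146 in combination tumors, a change of -0.07 ± 0.08 (SE, adjusted p = 0.492). Socs3 did not pass any comparison.

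Among 5 genes of receptor shedding and internalization, 2 rose and none fell, 40.0% of the list beside 43.2% of all genes, with a median of 0.01. Sorl1 and Sort1, sorting receptors, rose by 0.77 (adjusted p = 0.0015) and 0.93 (adjusted p = 0.00822), and Adam10 and Adam17, sheddases of the IL-6 receptor, did not pass against untreated tumors. Of 22 common STAT3 target genes, which include the member Osmr, 5 rose and 8 fell, 59.1% beside 43.2%, with a median of -0.07. Icam1, an adhesion molecule, rose by 1.15 ± 0.16 (SE, adjusted p = 5.52e-05), while Myc, Timp1 and Ccnd1 fell, with log2 fold changes of -0.86 (adjusted p = 2.33e-04), -0.82 (adjusted p = 3.53e-04) and -0.44 (adjusted p = 2.35e-04). The targets thus went in both directions, and many are also controlled by other factors.

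**Figure D5:**
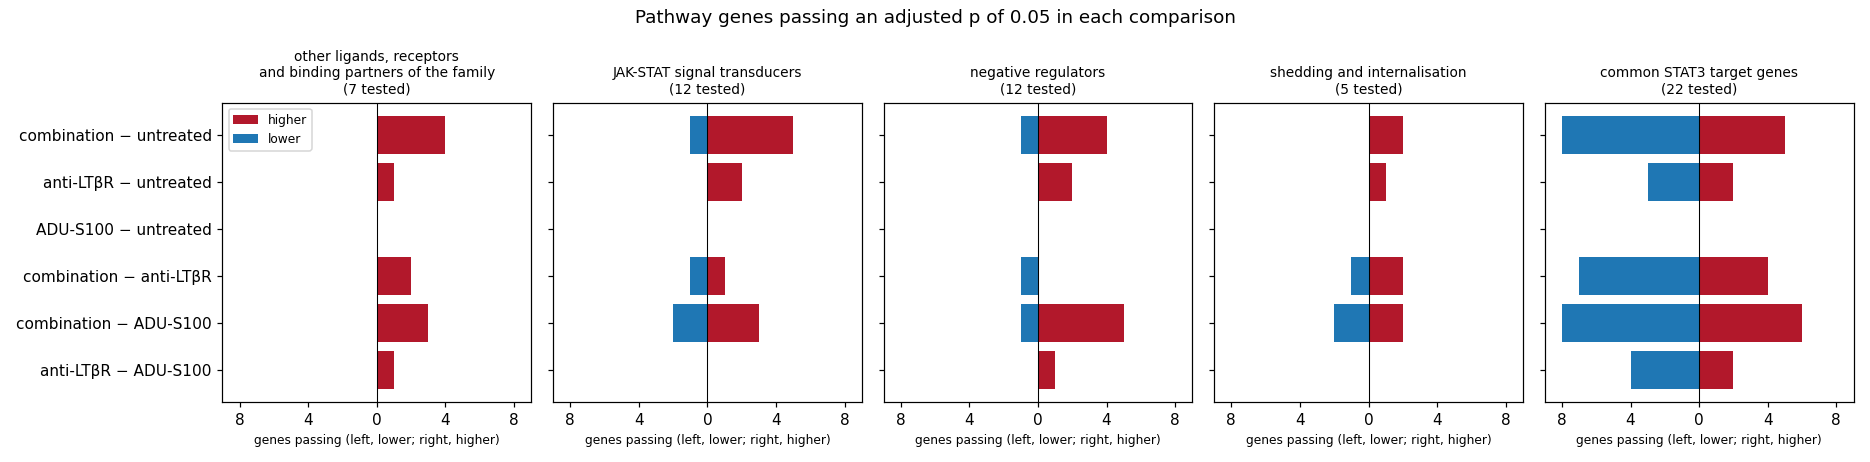
Number of genes of 5 pathway lists that passed an adjusted p of 0.05 in each pairwise comparison, with genes higher in the first-named group to the right and lower to the left. In combination against untreated tumors 4 of 7 other family genes were higher and none lower, and of 22 STAT3 target genes 5 were higher and 8 lower.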

How the data were processed

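Bulk poly(A) RNA of 32 tumors, 8 per group by the labels, was sequenced as stranded paired reads. The authors deposited a table of normalized signal: reads estimated per gene and divided by 1 size factor per library. The labels tie this table to Partek, and the study's reporting notes name STAR in Partek Flow for bulk RNA but with a human annotation, while its methods name HISAT2 and StringTie. The processing notes name mm39. Gene positions here come from GENCODE M21 (GRCm38). A larger deposited table of 52 libraries was scaled differently and shared 26057 genes with the first. Whole reads were recovered from the larger table for edgeR and DESeq2 (100% of low values whole within 0.01). The authors' table of 16162 gene sets was not used.

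Genes that passed filterByExpr (minimum count 10) were tested on log2(normalized count + 1) by limma (3.58.1, R 4.3.3) with a mean-variance trend, on the 16 tumors of each pair, or all 32 for the interaction, with Benjamini-Hochberg adjustment over all genes. In simulated counts with the same spread for every gene, 200 genes were raised or lowered 2-fold in combination against untreated tumors. There limma recovered 178 with 9 false calls among 15808 genes. Real genes differ in spread, so these rates do not describe single members. Alternatives were edgeR (4.0.16), DESeq2 (1.42.0), no filter, a pseudocount of 0.5, a joint fit, a replicate block, deeper libraries and each tumor left out. The members and all lists were chosen with earlier results of these data known. All 10 members were named, along with up to 4 genes per pathway list with the smallest adjusted p in combination against untreated tumors, Socs3 and Stat3, and for each member the 2 genes with the highest r within groups among 13482 genes with a mean of at least 50. The marker lists were of fibroblasts, endothelium, epithelial tumor, macrophages, neutrophils, T cells, B cells, mast cells, adipocytes, skeletal muscle and keratinocytes. Of 20 libraries of another experiment, 15 had labels that did not settle their group, and none entered a comparison. Some genes that the naming rule selected are not reported here.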

Additional observations from a re-analysis of the deposited data

Results flagged for a closer look

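Among 164 groups of 8 tumors examined (members, named pathway genes and marker sums), 13 held a tumor whose gap to its nearest neighbor took up more of the group's range than Dixon's 95% critical value, where chance gives about 5%. Untreated tumor 7 was such a tumor for Il6 at 582, for Lif at 502 and not for the other members. The other members with one were Il11, with an anti-LTβR tumor at 149, Lifr, with a low anti-LTβR tumor at 324, and Il11ra1, with an ADU-S100 tumor at 706. Among the pathway genes they were Ebi3 in an untreated tumor at 145, Gab1 in a low ADU-S100 tumor at 267 and Socs3 in an ADU-S100 tumor at 2323. Among marker sums they were B cell markers in a combination tumor at 705, mast cell markers in an ADU-S100 tumor at 1158, adipocyte markers in a combination tumor at 1836, and keratinocyte markers in an ADU-S100 tumor at 32074 and an anti-LTβR tumor at 33891. All values are normalized counts.

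The effect of the antibody differed with and without ADU-S100 for members and named pathway genes by limma's interaction. It was 1.36 on the log2 scale for Il11ra1 (adjusted p = 3.61e-04), 0.98 for Osm (0.0117), 1.68 for Cntfr (0.0214), 0.60 for Icam1 (0.0295) and -0.36 for Ccnd1 (0.00416).

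In the larger table, the 5 libraries of the other experiment that are labelled as combination all had Il11ra1 above the untreated tumors there. Their lowest value was 2378 normalized counts, and the highest untreated tumor stood at 674. Lifr overlapped there, at 98.2 to 836 in those libraries and 237 to 391 in the untreated tumors. The experiments differ in more than treatment, and neither comparison was tested.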

How the results depend on the processing

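No member's fold change reversed a call under any alternative. Of 614 values of single members under alternatives other than leaving out a tumor, 584 kept their direction and side of the threshold, 17 changed sign with no call on either side, 7 lost a call and 6 gained one. In 6 cases DESeq2 gave no adjusted p. Against untreated tumors the combination passed 3 members under all 9 other settings, 1 with a 2-fold minimum as well, and 3 to 5 with a tumor left out (5 without untreated tumor 3). Anti-LTβR against untreated passed 2 members, and 4 with DESeq2 (with Il11ra1 and Clcf1), 1 with libraries above 14000000 reads (without Osm), 0 with a 2-fold minimum and 2 to 4 with a tumor left out (4 without anti-LTβR tumor 8). ADU-S100 against untreated passed 0 in every setting and 0 to 0 with a tumor left out. Combination against anti-LTβR passed 4, and 1 with a 2-fold minimum and 3 to 5 with a tumor left out. Osm was lost there with no filter (adjusted p = 0.0516), with little muscle, under 100000 summed marker counts (0.0527) and with deeper libraries (0.127). Combination against ADU-S100 passed 4, and 1 with a 2-fold minimum and 4 to 5 with a tumor left out. Anti-LTβR against ADU-S100 passed 1, and 2 with DESeq2 (with Clcf1), 0 with a 2-fold minimum and 0 to 2 with a tumor left out (0 without ADU-S100 tumor 2, ADU-S100 tumor 4 or anti-LTβR tumor 6, 2 without ADU-S100 tumor 7 or anti-LTβR tumor 1 or 8). The interaction passed 2 members, and 1 with deeper libraries (without Osm). The limit of 100000 summed muscle marker counts was chosen after seeing the data and left 7 untreated, 6 ADU-S100, 5 anti-LTβR and 6 combination tumors; the cause of the lost calls was not tested.

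Tumors that share a replicate number came from different mice, since mice were randomized to a treatment. Their deviations from the group means correlated by -0.0855 to 0.186 on average, against -0.0288 to 0.0104 for tumors with other numbers. The numbers were not taken as pairs. All tumors were treated as independent, although the labels do not say whether tumors of a group shared a mouse. With the number as a replicate block, anti-LTβR against untreated passed 1 member, without Lifr (adjusted p = 0.0537), combination against anti-LTβR passed 5, with Clcf1 (0.0494), and no other member's call changed.

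Over all genes, counts moved by more than 1.5 times as follows. Anti-LTβR against untreated called 2555 genes, and 1660 with the block, 750 with little muscle and 1537 with deeper libraries. ADU-S100 against untreated called 0, and 1 with edgeR or the joint fit, 39 with DESeq2, 2 with the block and 7 with deeper libraries. Combination against anti-LTβR called 4504, and 858 with little muscle and 1450 with deeper libraries. Anti-LTβR against ADU-S100 called 1069, and 1636 with DESeq2, 710 with no filter, 475 with the joint fit, 445 with the block and 494 with little muscle. The interaction called 3240, and 719 with little muscle and 1568 with deeper libraries. With a tumor left out, ADU-S100 against untreated called 0 to 6 genes, anti-LTβR against untreated 1582 to 2927 and anti-LTβR against ADU-S100 425 to 1498. Osm had the lowest mean of the members and so the fewest reads behind it, at 38.0 normalized counts in anti-LTβR tumors.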

Other observations

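Genes of immune cells were measured beside the family. All 5 T cell markers rose in combination against untreated tumors, as did 3 of 4 B cell markers, 4 of 6 macrophage markers (Adgre1, C1qb, Cd68 and Csf1r) and 1 of 6 neutrophil markers (Csf3r), where 43.2% of all genes passed in either direction. With anti-LTβR alone 1 T cell marker (Cd3e), 1 B cell marker and 2 macrophage markers (Cd68 and Csf1r) rose, where 15.3% of all genes passed, and with ADU-S100 alone none. The 4 adipocyte markers did not pass any comparison, and their sum ran from 132 to 2225 in untreated to 151 to 1836 in combination tumors.

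The pathway lists were also counted in other comparisons. Against anti-LTβR, combination tumors had 2 of 7 other family genes higher (Cntfr and Il27ra), 28.6% beside 26.6% of all genes, and against ADU-S100 they had 3 (with Ebi3), 42.9% beside 46.2%, so both counts were near the share over all genes. Of 5 shedding and internalization genes, Sorl1 and Sort1 were higher in combination tumors in both of these comparisons, while Adam10 was lower in both and Adam17 lower against ADU-S100. That is 60.0% of the list against anti-LTβR, beside 26.6% of all genes, and 80.0% against ADU-S100, beside 46.2%. Arid5a was lower in combination tumors in both.

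The 20 libraries of the other experiment, which entered no comparison, held the family at these normalized counts in the larger table. Il11ra1 ran from 2378 to 11476 (median 3178) over the 5 libraries labelled as combination and from 334 to 5313 (median 685) over the 15 libraries with no settled group. Clcf1 ran from 530.0 to 2978 (median 1866) and 787 to 2245 (median 1411), Lifr from 98.2 to 836 (median 319.9) and 229 to 653 (median 321), and Osm from 67.8 to 249 (median 90.7) and 75.4 to 180.0 (median 98.8). Il6 ran from 15.1 to 814 (median 149.5) and 31.2 to 463 (median 141). One of the 5 libraries held 8716257 recovered reads, fewer than any of the 32. Its normalized counts summed to 32925240, against 14357560 to 15606421 in the 32, so its values stand on a larger scale.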
